A study of Mus musculus with 8 samples.

Results

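The genes described here make up the MHC class II antigen presentation machinery of mouse kidney: H2-Aa, H2-Ab1, H2-Eb1, Cd74, H2-DMa, H2-DMb1, H2-DMb2, H2-Oa, H2-Ob and Ciita. They were chosen by name, as every non-control probe whose gene name in the scanner files is one of these 10. This gave 14 probes out of 55681. Each gene had at least 1 probe that passed the filter on dim probes (detected by the scanner software as well above background on 4 or more arrays), so that all 10 were among the 25127 genes and unnamed transcripts tested.

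Class II molecules are cell surface receptors that show peptides from the endosomes to CD4+ T cells. An alpha and a beta chain assemble on the invariant chain Cd74, which fills the groove and steers the complex to the endosome. There Cd74 is degraded down to a small fragment, the exchange factor DM replaces that fragment with peptide, and DO holds DM back. Ciita is the coactivator on which transcription of these genes depends, and interferon-gamma induces it. In the kidney, dendritic cells and macrophages of the interstitium carry class II at rest, and tubular and endothelial cells can acquire it during inflammation.

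Kidneys of CD-1 mice, an outbred stock, were compared after 28 days of tacrolimus at 1 mg/kg/day, or of physiological serum in the control group. Tacrolimus is a calcineurin inhibitor that is given against transplant rejection and is toxic to the kidney. Each group had 4 arrays of total RNA from whole kidney, and no age, sex or genotype is given in the labels. The labels number the replicates without naming animals, so that the p-values reflect only how far these samples differ, which may in part be technical.

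Per array, 64.0% to 69.8% of non-control spots exceeded background clearly, and none was saturated. Precision is limited by there being 4 arrays in a group. All controls lay in row 1 of a single slide and all tacrolimus samples in row 2, and slide row and treatment cannot be told apart. A level below is a log2 signal minus the log2 of its array's 75th percentile, and a difference is tacrolimus minus control. In whole kidney RNA, more cells of a type and more RNA per cell cannot be told apart. Markers of the proximal tubule (Slc34a1, Lrp2, Slc5a2, Slc22a6 and Cubn) were well above background on all 8 arrays. Their mean level was 7.21 to 7.37 in controls and 6.98 to 7.32 under tacrolimus.

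The signal of H2-DMb2 and of H2-Aa each rests on a single probe of 60 bases, and these are shown because H2-DMb2 has the one called difference and H2-Aa is the partner chain of H2-Ab1. On mm9, the assembly of the array annotation, the probe of H2-DMb2 lies at chr17:34284764-34284823 and that of H2-Aa at chr17:34421285-34421344. Whether they lie in exons or untranslated parts was not analysed here.
H2-DMb2 probe: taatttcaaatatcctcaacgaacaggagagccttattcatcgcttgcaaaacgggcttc
H2-Aa probe: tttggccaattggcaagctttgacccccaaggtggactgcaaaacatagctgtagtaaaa

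H2-Ab1 was read by a pair of overlapping probes, which share 51 bases and differ in 1 of them, T51C counted from the first base of the brighter probe. A stretch of 24 bases is given for each, with the differing base in capitals. They are shown because class II genes are highly polymorphic, CD-1 is outbred, and the alleles of these animals were not read here. The names brighter and dimmer go by the mean over the arrays. The brighter probe minus the dimmer was -0.14 on control replicate 3 and -0.03 and -0.19 on tacrolimus replicates 1 and 2, and above 0 on the others. How far each probe fits the alleles of each animal was not tested.
H2-Ab1 brighter probe: caaataaacgagacTcagactctg
H2-Ab1 dimmer probe: caaataaacgagacCcagactctg

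Of the 10 genes, 8 lie in the MHC region of chromosome 17 on mm9, in the order H2-Oa, H2-DMa, H2-DMb2, H2-DMb1, H2-Ob, H2-Ab1, H2-Aa and H2-Eb1 by the position of their probes. Promoter sequences from RefSeq on GRCm38.p6 were matched for 7 of the 10, and H2-Ab1, Cd74 and Ciita had none in the table. All 7 held the inverted CCAAT pentamer ATTGG of the Y box on either strand, where 37.4% did of all 32851 promoters of the same length. The longer form CTGATTGG stood in those of H2-Aa, H2-Eb1 and H2-Oa (4.10% of all promoters). The X box, the site of the RFX factors, was searched by its longer consensus, found in H2-DMb1 and H2-Ob (0.195% of all) as the longest runs of capitals below, and by the core CAACNGATG, found in H2-Eb1 (0.566%). These patterns can overlap, both strands were searched, and a match is only a description of the letters.

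The stretch from 140 to 21 bases before the start site is shown for 6 of them, with matches on the gene's own strand in capitals. H2-Aa is at chr17:34287844-34287963 on the minus strand. The other 5 are on the plus strand, H2-Eb1 at chr17:34305727-34305846, H2-DMb1 at chr17:34153051-34153170, H2-DMb2 at chr17:34145109-34145228, H2-Oa at chr17:34092239-34092358 and H2-Ob at chr17:34238765-34238884.
H2-Aa: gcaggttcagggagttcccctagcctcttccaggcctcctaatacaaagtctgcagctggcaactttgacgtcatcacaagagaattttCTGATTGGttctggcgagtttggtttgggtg
H2-Eb1: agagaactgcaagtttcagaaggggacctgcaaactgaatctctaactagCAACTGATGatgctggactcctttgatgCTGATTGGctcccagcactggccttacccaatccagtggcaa
H2-DMb1: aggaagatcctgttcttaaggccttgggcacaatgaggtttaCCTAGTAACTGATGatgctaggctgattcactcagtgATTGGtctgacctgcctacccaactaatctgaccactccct
H2-DMb2: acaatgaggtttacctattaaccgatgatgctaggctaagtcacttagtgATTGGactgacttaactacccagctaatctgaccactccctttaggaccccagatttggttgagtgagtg
H2-Oa: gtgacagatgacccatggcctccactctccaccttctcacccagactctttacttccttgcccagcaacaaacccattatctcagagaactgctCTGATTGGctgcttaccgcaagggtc
H2-Ob: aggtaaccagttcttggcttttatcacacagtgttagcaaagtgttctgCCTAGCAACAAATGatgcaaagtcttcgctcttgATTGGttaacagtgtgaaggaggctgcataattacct

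One of the 10 genes, H2-DMb2, rose under tacrolimus at an adjusted p under 0.05 (limma, Benjamini-Hochberg over all genes tested), where 0.187% of all genes rose by that rule. Its probe passed the filter on dim probes through the 4 tacrolimus arrays alone, so that this call rests on control levels that were not measured. With no filter its adjusted p was 0.0544 (limma). The other 9 genes were not called. The fitted difference was above 0 for all 10, as for 39.5% of all genes tested. It was above 0 at an unadjusted p under 0.05 for 8, where 7.04% of all genes were, and H2-DMb1 and H2-Oa were the 2 outside. None was below 0 at that p, where 8.42% of all genes were. Of the 12 probes of these genes that were tested, 9 were higher at an unadjusted p under 0.05 (6.42% of all tested probes) and 1 was called (0.0904%). The tacrolimus arrays lay entirely above the control arrays for 4, H2-Ab1, H2-DMa, H2-DMb2 and Ciita, as they did for 4.35% of all genes, with 10.1% not overlapping in either direction. The median difference of the 10 genes was 1.38, and that of all genes tested was -0.05. Leaving out any 1 array left 6 or 7 of the 10 higher at an unadjusted p under 0.05. Without control replicate 2 and tacrolimus replicate 4 together, the arrays of each group with the highest adipocyte markers, it was 7. Relative to the control mean, the adipocyte list was still -0.51, -0.99 and -1.11 on control replicates 1, 3 and 4. It was 3.47, 2.53 and 2.71 on tacrolimus replicates 1 to 3. The part of adipocyte RNA in the class II differences was therefore not tested by this fit.

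**Figure D1:**
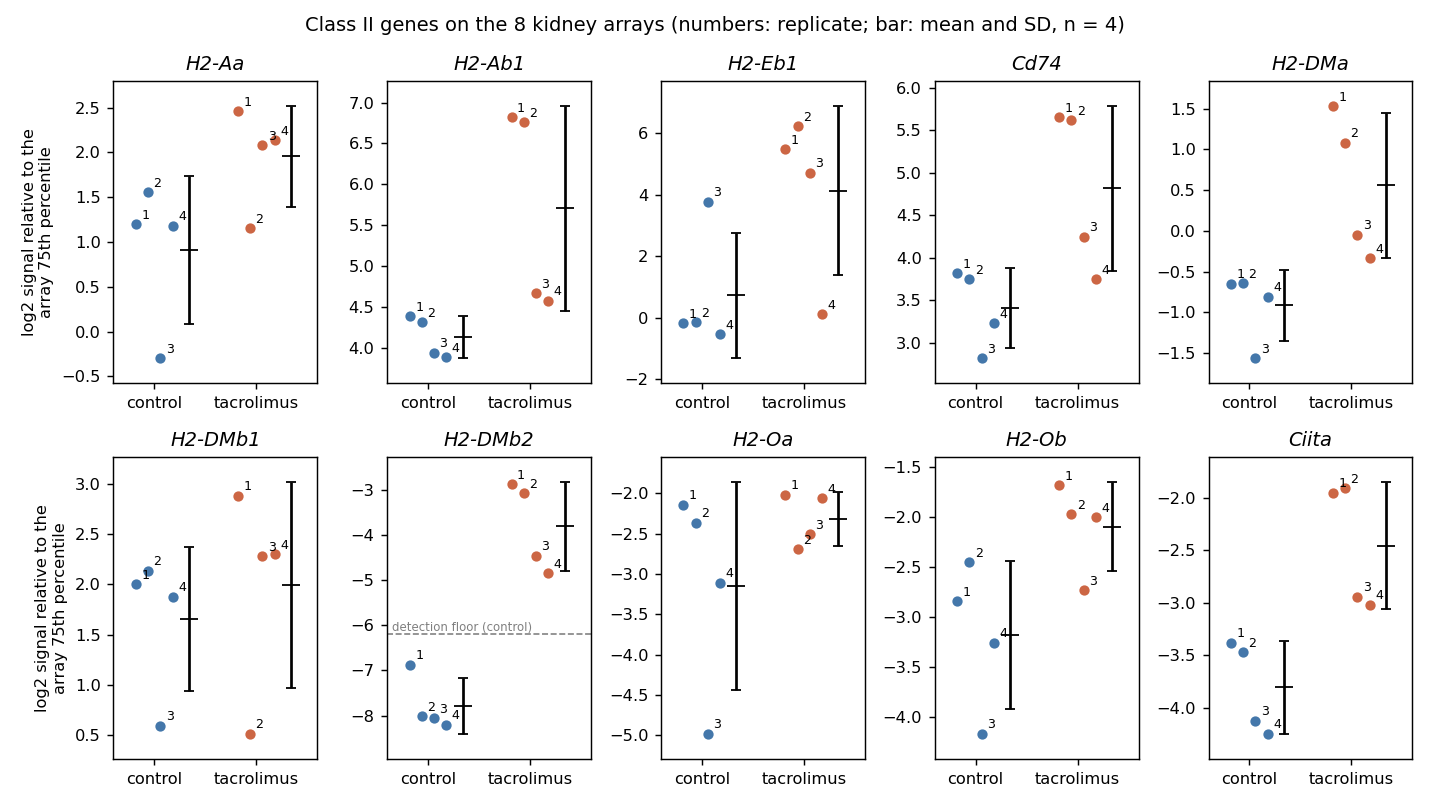
Log2 signal relative to the 75th percentile of the array (vertical axis) for the 10 genes in the 4 control and 4 tacrolimus arrays. Points are arrays numbered by replicate, and the bar beside each group gives its mean and SD (n = 4). The dashed line for H2-DMb2 is the detection floor of the control arrays, and tacrolimus replicates 1 and 2 are the highest points for Cd74, H2-Ab1, H2-DMa, H2-DMb2 and Ciita.

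The chains of the A molecule differed in their pattern across the arrays. H2-Ab1, the beta chain, read 4.39, 4.31, 3.94 and 3.89 on control replicates 1 to 4 and 6.82, 6.76, 4.67 and 4.58 on tacrolimus replicates 1 to 4. The groups did not overlap, and tacrolimus replicates 1 and 2 stood well above replicates 3 and 4. The difference was 1.57 ± 0.54 (SE, n = 4 per group), a 2.98-fold ratio, with an unadjusted p of 0.0192 and an adjusted p of 0.239 (limma). The overlapping probe of H2-Ab1 differed by 1.74 ± 0.63, and its groups did not overlap either. It read 4.04, 4.07, 4.08 and 3.42 on the control arrays and 6.85, 6.95, 4.53 and 4.24 on the tacrolimus arrays, with tacrolimus replicates 1 and 2 again the highest.

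H2-Aa, the alpha chain that pairs with H2-Ab1, read 1.20, 1.56, -0.29 and 1.18 on the control arrays and 2.46, 1.16, 2.08 and 2.14 on the tacrolimus arrays. Tacrolimus replicate 2 lay within the control range, and control replicate 3 was the lowest of all 8. The difference was 1.05 ± 0.43 (SE), with an adjusted p of 0.297 (limma). It was 0.64 without control replicate 3, and 1.31 without tacrolimus replicate 2. On tacrolimus replicate 2, H2-Ab1 stood 2.62 above its own control mean and H2-Aa 0.24 above its own.

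H2-Eb1, the beta chain of the E molecule, had the widest spread of the 10 genes. The control arrays read -0.18, -0.14, 3.77 and -0.55, and the tacrolimus arrays 5.48, 6.23, 4.71 and 0.11. Control replicate 3 lay among the high arrays and tacrolimus replicate 4 near the other controls, so that the groups overlapped. How well this probe, and those of H2-Aa and H2-DMb1, fit the alleles of each animal was not tested. In intensity units the same probe read 925, 790.0, 10840.0 and 591 on the control arrays and 47277, 69443, 17674 and 830 on the tacrolimus arrays. The fitted difference was 3.41 ± 1.45 (SE), with an unadjusted p of 0.0454 and an adjusted p of 0.314 (limma). It was 4.42 without control replicate 3 and 4.75 without tacrolimus replicate 4, and from 2.71 to 3.21 without any 1 of the others.

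H2-Ea-ps and H2-Eb2 are the neighbours of H2-Eb1 in the class II region and are not among the 10 genes. H2-Ea-ps, the alpha chain partner of H2-Eb1, named as a pseudogene in the files, read -5.99, -5.87, -3.04 and -7.25 on the control arrays and -5.42, -8.06, -1.70 and -5.37 on the tacrolimus arrays. It was highest on tacrolimus replicate 3 and control replicate 3, and on tacrolimus replicate 2, where H2-Eb1 was brightest, it was not well above background. Its difference was 0.40 ± 1.34 (SE; adjusted p = 0.909, limma). H2-Eb2 differed by 1.04 ± 0.34, with an adjusted p of 0.224.

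**Figure D2:**
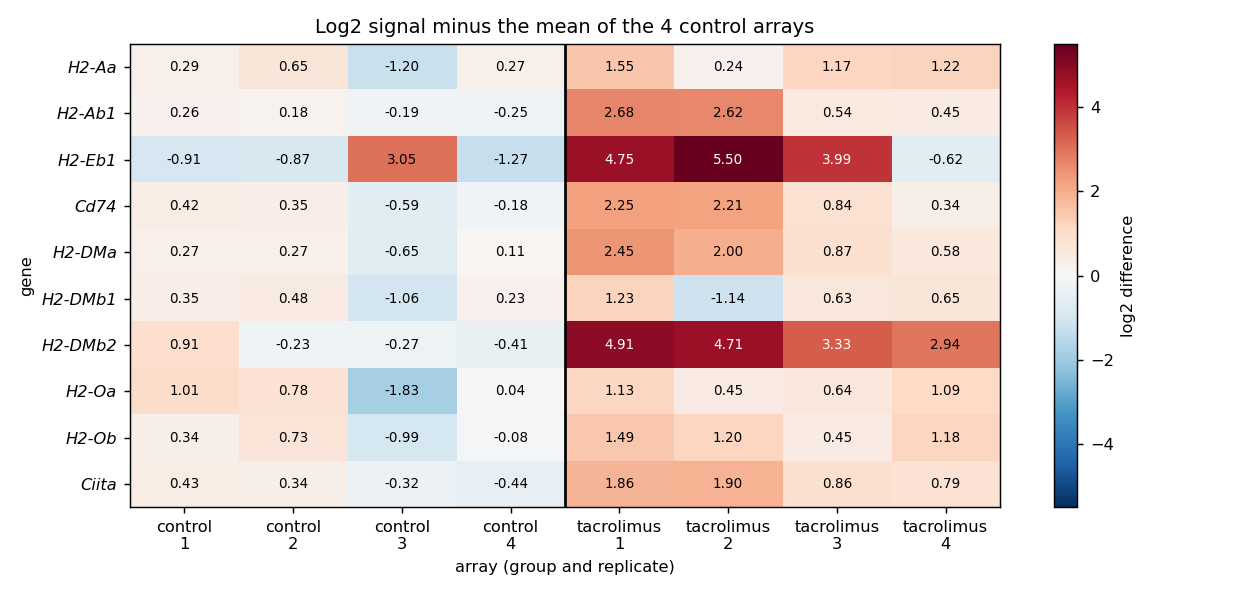
Log2 signal of each gene (rows) on each array (columns) minus the mean of the gene's 4 control arrays, printed in each cell and coloured from blue (below) to red (above). The H2-Eb1 row reads 3.05 on control replicate 3 and -0.62 on tacrolimus replicate 4, and the H2-DMb1 row reads -1.14 on tacrolimus replicate 2.

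Cd74, the invariant chain, read 3.82, 3.75, 2.82 and 3.23 on the control arrays and 5.65, 5.62, 4.25 and 3.75 on the tacrolimus arrays. Tacrolimus replicate 4 lay just under control replicate 1, and the other 3 tacrolimus arrays lay above every control. The difference was 1.41 ± 0.46 (SE), a 2.66-fold ratio (unadjusted p = 0.0146, adjusted p = 0.221, limma). Its probe lies on chromosome 18 from 60972075 to 60972132 on mm9.

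H2-DMb2 encodes a beta chain of the peptide exchange factor DM. Its probe gave 8.9, 3.4, 3.0 and 2.9 intensity units on the control arrays, none of them well above background, and 144, 109.9, 30.6 and 26.7 on the tacrolimus arrays, all of them well above it. On the log2 scale these are -6.87, -8.01, -8.06 and -8.20 against -2.88, -3.08, -4.46 and -4.85, and the groups did not overlap. Because the control level is not measured, the difference is a bound. The mean of the tacrolimus arrays was at least 5.22-fold above the mean of the control floors, each floor being the higher of the array's lowest signal well above background and the probe's own. The fitted difference was 3.97 ± 0.50 (SE), with an adjusted p of 0.0341 (limma).

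The call of H2-DMb2 held without control replicate 1 (adjusted p = 0.0329) or tacrolimus replicate 4 (0.0433), and was lost without control replicate 2, 3 or 4 (0.0870, 0.101 and 0.102) or tacrolimus replicate 1, 2 or 3 (0.0761, 0.0731 and 0.0532). With normexp background correction, which adds an offset, the difference was 1.06 with the 75th percentile and 1.00 with quantile normalization, less than the bound, and the second was not called (adjusted p = 0.0849). With the deposited values, which come from raw intensities, it was 1.57 (adjusted p = 0.0469, limma), also less than the bound. The bound therefore applies only to the background-subtracted intensities used here.

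H2-DMb1, the gene next to H2-DMb2 that encodes the other DM beta chain, read 2.01, 2.14, 0.59 and 1.88 on the control arrays and 2.88, 0.51, 2.28 and 2.30 on the tacrolimus arrays. Control replicate 3 and tacrolimus replicate 2 were the lowest of their groups, as they were for H2-Aa. The difference was 0.34 ± 0.53 (SE; adjusted p = 0.788, limma), and it was -0.013 without control replicate 3 and 0.84 without tacrolimus replicate 2. A further probe of H2-DMb1 was too dim on all 8 arrays to be tested. In intensity units the tested H2-DMb1 probe read 4209, 3843, 1194 and 3181 on the control arrays, where the H2-DMb2 probe was not well above background. Cross-hybridisation of either DMb probe with the other gene was not tested.

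H2-DMa, the alpha chain of DM, read -0.65, -0.64, -1.56 and -0.81 on the control arrays and 1.53, 1.08, -0.05 and -0.33 on the tacrolimus arrays. Every tacrolimus array lay above every control, with replicates 1 and 2 highest. The difference was 1.47 ± 0.43 (SE), a 2.78-fold ratio (unadjusted p = 0.00796, adjusted p = 0.178, limma).

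H2-Oa and H2-Ob encode the chains of DO, the inhibitor of DM that is best known from B cells. H2-Ob read -2.84, -2.45, -4.16 and -3.26 on the control arrays and -1.68, -1.98, -2.73 and -2.0 on the tacrolimus arrays. The groups overlapped through tacrolimus replicate 3, and the difference was 1.08 ± 0.37 (SE; unadjusted p = 0.0184, adjusted p = 0.235, limma). Its further tested probe differed by 0.45 ± 0.25, less than the brighter probe, and the remaining probe was well above background on control replicate 3 alone. H2-Oa read -2.14, -2.36, -4.98 and -3.11 on the control arrays and -2.02, -2.70, -2.51 and -2.06 on the tacrolimus arrays. Its difference of 0.83 ± 0.57 (adjusted p = 0.496) was 0.22 without control replicate 3, which was the lowest array for both DO genes.

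Ciita, the class II transactivator, read -3.38, -3.47, -4.12 and -4.25 on the control arrays and -1.95, -1.91, -2.94 and -3.02 on the tacrolimus arrays. Its groups did not overlap, and tacrolimus replicates 1 and 2 were again the highest. The difference was 1.35 ± 0.33 (SE), a 2.55-fold ratio, and it had the second lowest unadjusted p of the 10 genes, 0.00291 (adjusted p = 0.121, limma). With normexp background correction the difference was 0.82 with the 75th percentile and 0.77 with quantile normalization, and with the deposited values it was 1.01. Its probe lies on chromosome 16 from 10526568 to 10526627 on mm9 and is largely a repeat of the unit AAAAC, and its cross-hybridisation was not tested.

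**Figure D3:**
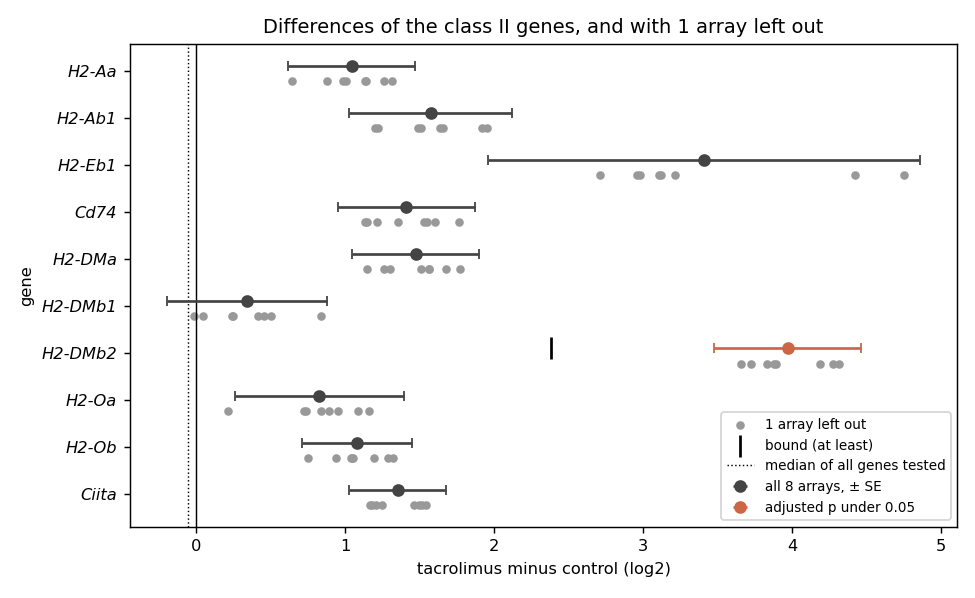
Fitted difference of each gene, tacrolimus minus control in log2 units (horizontal axis), with its SE over all 8 arrays, and below it in grey the values with 1 array left out. The coloured point is H2-DMb2, called at an adjusted p of 0.0341, with its bound as a vertical tick, and H2-DMb1 reaches -0.013 when control replicate 3 is left out.

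Within the groups, the genes varied along different lines. The correlation of deviations from the group means, given over the 8 arrays as a description, was 0.95 between Cd74 and H2-Ab1, 0.97 between Cd74 and H2-DMa, 0.95 between Cd74 and Ciita and 0.90 between Cd74 and H2-DMb2. H2-Aa and H2-DMb1 correlated at 0.93 with each other and at 0.16 and -0.01 with Cd74. H2-Aa and its partner H2-Ab1 correlated at -0.07, and H2-Eb1 correlated at -0.64 with H2-Aa and at 0.41 with Cd74. The arrays share a slide, and 8 points leave these values imprecise. The value for H2-DMb2 also rests on its control levels, none of which was well above background.

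By array, the median of the 10 genes relative to their control means was 2.05, 1.95, 0.85 and 0.72 on tacrolimus replicates 1 to 4. Tacrolimus replicate 1 was the highest of its group for 8 of the 10 genes and replicate 4 the lowest for 6. Control replicate 3 had the lowest value of its group for 6 of the 10 and a median of -0.62, although it was the highest control for H2-Eb1.

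Genes outside the 10 whose deviations from the group means were most like the mean of H2-Aa, H2-Ab1, H2-Eb1 and Cd74 were Kcnrg, Ddx18, Eif3c, Ski and Strn4, with correlations of 0.98 to 0.99 over the 8 arrays. They differed between the groups by -0.28, -0.20, -0.06, -0.32 and -0.38, so that their likeness lies within the groups. They were picked as the highest of 25127 genes over 8 arrays, and how far chance alone gives such values was not tested. The deviations were averaged unscaled. Of the genes averaged, H2-Ab1, H2-Eb1 and Cd74 correlated with the mean at 0.87, 0.84 and 0.83, but H2-Aa at -0.24. Among the members not averaged, H2-DMb2, H2-DMa and Ciita correlated with it at 0.80, 0.76 and 0.75, the first in part through control levels that were not measured. H2-Ob, H2-Oa and H2-DMb1 did so at 0.10, -0.17 and -0.27.

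Of the 7 enhanceosome genes (Rfx5, Rfxap, Rfxank, Nfya, Nfyb, Nfyc and Creb1), none was called and none was higher or lower at an unadjusted p under 0.05 (limma). Without control replicate 2, 1 was higher by that rule. Their median difference was -0.02. Nfya, a subunit of the Y box factor NF-Y, differed by 0.23 ± 0.11 (SE), and Rfxap, a subunit of the X box factor RFX, by -0.18 ± 0.10.

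Among 11 genes of interferon-gamma signalling that lead to Ciita, none was called (limma) and 3 were higher at an unadjusted p under 0.05, among them Irf8 and Irf1. Irf8, a transcription factor of myeloid cells, differed by 0.87 ± 0.24 (SE; adjusted p = 0.163), with groups that did not overlap. Irf1, which acts on an inducible promoter of Ciita, differed by 0.79 ± 0.23. Ifng itself differed by 0.49 ± 0.44 and Socs1, the feedback inhibitor, by 0.37 ± 0.19. The list's median was 0.33.

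The proteases and other proteins of endosomes and lysosomes (11 genes) had a median difference of -0.07, with none called (limma) and 1 higher at an unadjusted p under 0.05. That gene was Ctss, cathepsin S, the protease that removes the invariant chain in antigen-presenting cells. Ctss read 2.14, 2.46, 1.81 and 1.86 on the control arrays and 3.84, 3.90, 3.18 and 2.83 on the tacrolimus arrays, groups that did not overlap. Its difference was 1.37 ± 0.26 (SE), with an adjusted p of 0.0705. Ctsl, Ctsh and Cst3, the next by p, differed by 0.15, -0.16 and 0.15.

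Genes of class II turnover at the cell surface gave values in both directions. Cd83, which protects class II from removal, differed by 1.24 ± 0.25 (SE; adjusted p = 0.0788, limma), with groups that did not overlap. Marchf1, listed in the files as March1, a ubiquitin ligase that sends class II for degradation, read 3.93, 3.89, 3.95 and 3.93 on the control arrays and 3.51, 3.49, 3.39 and 3.53 on the tacrolimus arrays. Its difference was -0.45 ± 0.08 (adjusted p = 0.0553), and that of a further probe was -0.25. Marchf8 and Sppl2a differed by 0.30 and 0.02.

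Of 6 costimulatory genes none was called (limma), and Cd86 and Icosl were higher at an unadjusted p under 0.05. This count of 2 was 1 without control replicate 4, tacrolimus replicate 1 or tacrolimus replicate 2, and 4 without tacrolimus replicate 4. Cd86, a ligand of CD28, differed by 1.24 ± 0.34 (SE; adjusted p = 0.158), with groups that did not overlap, while Cd80, the related ligand, differed by 0.05. Icosl, Cd40 and Pdcd1lg2 differed by 0.40, 0.48 and 0.60, the last of these well above background on 2 control and 3 tacrolimus arrays, as was Lag3. On the side of the responding cell, Cd4 differed by -0.28 ± 0.15, Cd28 by 0.28, Lag3 by 0.27 and Icos by 0.26, and none of the 5 genes tested was under an unadjusted p of 0.05, while 2 were higher by that rule without tacrolimus replicate 4.

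Class I presentation, the parallel route that shows cytosolic peptides to CD8+ T cells, had 5 of 9 tested genes higher at an unadjusted p under 0.05 and none called (limma). Nlrc5, the class I counterpart of Ciita, differed by 1.28 ± 0.35 (SE; adjusted p = 0.157), Tap1 by 1.16 ± 0.28, Psmb8 by 1.06 ± 0.32 and Psmb9 by 0.90 ± 0.28. A further probe of Nlrc5 differed by 0.24. The chains of the class I molecules themselves, B2m, H2-K1 and H2-D1, differed by 0.42, 0.42 and 0.32. Their groups overlapped and none was under an unadjusted p of 0.05. Further probes of H2-K1 differed by 0.43 and 1.24. The list's median was 0.76. Its mean relative to the control mean was 1.40, 0.97, 0.40 and 0.30 on tacrolimus replicates 1 to 4, highest on the arrays where Cd74 and H2-Ab1 were highest.

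**Figure D4:**
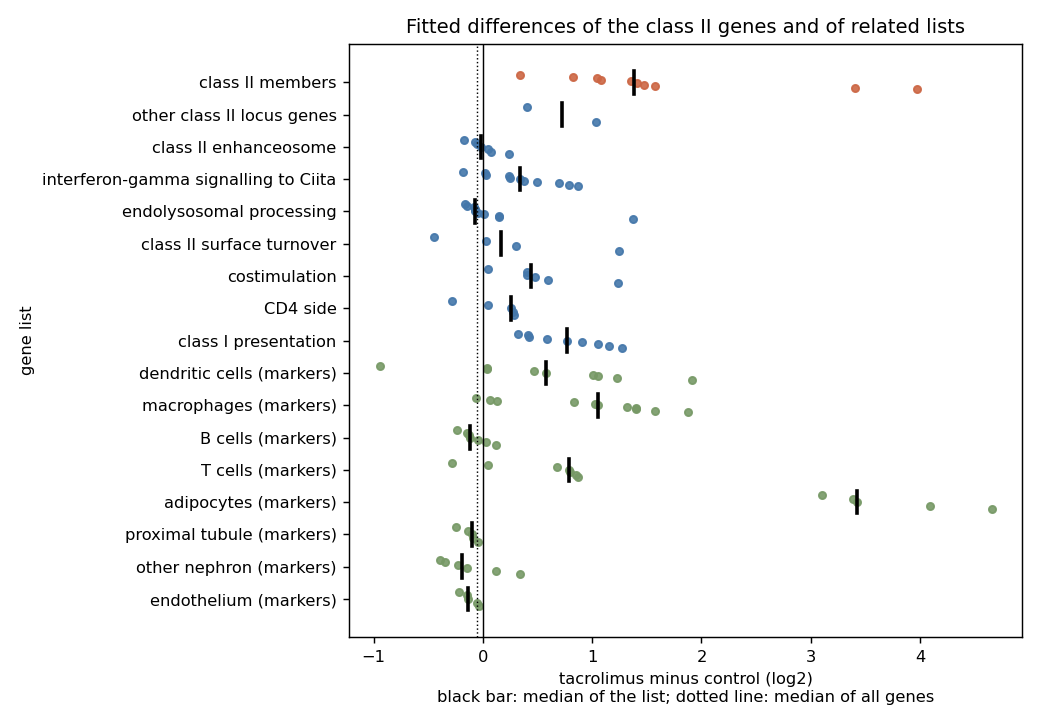
Fitted differences, tacrolimus minus control in log2 units (horizontal axis), of the 10 class II genes (orange), of related pathway lists (blue) and of cell type markers (green), 1 point per gene tested. Black bars are list medians, 1.38 for the class II genes and 1.05 for macrophage markers, and the dotted line is the median of all genes, -0.05. The points of H2-DMb2 and Plin1 are fitted values of genes whose difference is only bounded.

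Markers of cells that carry class II were measured beside these genes, and their part in the differences above was not tested. Of 11 tested macrophage markers, 8 were higher at an unadjusted p under 0.05 and none was called (limma). The mannose receptor Mrc1 differed by 1.88 ± 0.31 (SE) and the complement chains C1qa, C1qc and C1qb by 1.32, 1.40 and 1.05, with groups that did not overlap for any of these 4. Csf1r, the receptor on which macrophages depend, differed by 0.06, Mertk by 0.13 and Fcgr1, which was well above background on 3 control arrays and 1 tacrolimus array, by -0.06. The mean level of the macrophage list ran from -0.71 to -0.07 on the control arrays and from 0.20 to 0.80 on the tacrolimus arrays. Relative to the controls it was 1.03, 1.28, 0.68 and 0.87 on tacrolimus replicates 1 to 4, where Cd74 alone was 2.25, 2.21, 0.84 and 0.34. Cd163 was too dim to be tested.

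Of 9 tested dendritic cell markers, 4 were above 0 and 1 below it with an unadjusted p under 0.05, and none was called (limma). Clec9a, a receptor of cross-presenting dendritic cells that was well above background on 3 of 4 control arrays, differed by 1.91 ± 0.51 (SE), Batf3, a transcription factor of the same cells, by 1.23 ± 0.22 (adjusted p = 0.0595), Itgax by 1.05 ± 0.39 and Clec10a by 1.01 ± 0.35. The lower one was Flt3, at -0.94 for its brightest probe and 1.13 for a further probe. The mean level of the list ran from -1.49 to -0.69 on the control arrays and from -0.58 to -0.34 on the tacrolimus arrays. These means include Siglech, whose brightest probe had means of 7.08 and 7.11, far above the other markers of the list. That probe differed by 0.03 and its further probes by -0.21 and 1.01. Whether it reads dendritic cell RNA was not tested. Xcr1 was too dim to be tested.

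B cells also carry class II, together with DO. None of 7 tested B cell markers was higher at an unadjusted p under 0.05, and 1, Cd22, was lower, with a difference of -0.24 (adjusted p = 0.221, limma). The median difference of the list was -0.12, and Cd79a and Cr2 differed by -0.13 and -0.12. Its mean level ran from -2.73 to -1.96 on the control arrays and from -2.50 to -2.11 on the tacrolimus arrays. Pax5 and Blk were too dim to be tested.

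T cell markers were higher at an unadjusted p under 0.05 for 3 of 7, Cd2, Lck and Cd8a, by 0.87, 0.68 and 0.79, and Cd3g differed by 0.85, with none called (limma). The count of 3 was 5 without control replicate 1. In the same list Cd3e, a chain of the T cell receptor complex, differed by 0.05 and Cd4 by -0.28. Their control means were -0.15 and 2.76, well above those of Cd3d, Cd3g and Cd2, at -2.80, -3.35 and -2.84. Whether the Cd3e and Cd4 probes read T cell RNA alone was not tested. All 5 adipocyte markers were higher at an unadjusted p under 0.05 and none was called (limma), and the mean of that list relative to the controls was 3.47, 2.53, 2.71 and 6.22 on tacrolimus replicates 1 to 4 and 2.61 on control replicate 2, so that the groups overlapped. Plin1 was well above background on 0 control arrays, Adipoq on 1, Cidec on 2 and Retn on 3, so that these list values rest in part on control levels that were not measured. Tacrolimus replicate 4, the highest for adipocyte markers, was the lowest of its group for Cd74, H2-Ab1, H2-Eb1, H2-DMa, H2-DMb2 and Ciita. Markers of the proximal tubule, of other nephron segments and of endothelium, 16 genes in all, had none at an unadjusted p under 0.05 in either direction, with medians of -0.10, -0.19 and -0.13.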

How the data were processed

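Total kidney RNA was labelled with Cy3 and hybridised to 1-colour Agilent arrays of 62976 features. Per the file headers, Agilent Feature Extraction 10.7.3.1 gave each spot's raw intensity, local background and a processed intensity, background-subtracted and not normalized between arrays. The deposited table of the authors holds log2 values, which matched the raw median intensity after quantile normalization to within 5e-09. The submitters' processing notes name limma.

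Each processed intensity was divided by its array's 75th percentile (59305 non-control spots) and put on the log2 scale. Spots marked as outliers, 147 to 194 on an array, were dropped, and replicate spots of 1 probe were averaged. Of 55681 probes, 36493 were well above background on at least 4 of 8 arrays, and a gene was represented by its brightest such probe. Symbols were taken from RefSeq (GRCm38.p6) through the accession for 28026 probes. The test was limma 3.58.1 under R 4.3.3 (two-sided, Benjamini-Hochberg over 25127 genes, called under 0.05). Values of further probes come from the same fit over all tested probes. On simulated arrays for this comparison with 25127 genes, it recovered 70% of 100 genes changed by 1 log2 unit and 88% of 100 changed by 2, with 9 of 167 calls on unchanged genes. The simulated noise was normal and independent between genes, with no effect shared by the genes of an array. How far these shares hold for the real arrays was therefore not tested.

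The 10 genes, the related lists and the alternatives were chosen with earlier results of these data known. The rule for names was all 10 genes, up to 4 genes per list with the lowest p, and the 5 most alike within groups. A few genes of the lists are not reported here. Further list members are named to describe a list and were chosen after their values were seen. Alternatives were other normalizations and background corrections, the deposited table, other filters, the mean of probes, variance models, weights per array, a block for the replicate number, and fits without 1 or 2 arrays.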

Additional observations from a re-analysis of the deposited data

Results flagged for a closer look

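Of 148 groups of 4 arrays checked, 8 had an array that stood apart from the other 3 by Dixon's criterion at the 95% level, which chance alone meets in about 1 in 20 groups. Control replicate 3 held 4 of them. H2-Eb1 read 3.77 there, against -0.55 to -0.14 on the other controls. H2-DMb1 read 0.59 there, against 1.88 to 2.14. Cd40 read -1.53, against -0.94 to -0.91, and Clec9a -5.87, against -4.25 to -3.95.

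The dimmer H2-Ab1 probe read 3.42 on control replicate 4, against 4.04 to 4.08 on the other controls. H2-DMb2 read -6.87 on control replicate 1, which was not well above background. Among adipocyte markers, Plin1 read -1.44 on tacrolimus replicate 4, against -5.74 to -5.14, and Cidec -3.04 on control replicate 2, against -6.32 to -6.08.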

How the results depend on the processing

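The median difference of the 10 genes lay between 1.01 and 1.76 over 21 alternatives, the bound of H2-DMb2 (chosen after seeing the data) among them. Of the 10 genes, 1 was called (limma) with all arrays and 0 or 1 with 1 array left out. It was 0 with normexp and quantile normalization, with no filter, with the filter on all 8 arrays (where H2-DMb2 is not tested) and without control replicate 2 and tacrolimus replicate 4 together, with 6 to 8 at an unadjusted p under 0.05 in every fit. The replicate number as a block gave 2, H2-DMb2 and Ciita (adjusted p = 0.0303 for Ciita, range over settings 0.0303 to 0.282). The deviations of same-numbered control and tacrolimus arrays from their group means correlated at 0.16, 0.02, 0.14 and 0.06, not all over 0.1. The levels themselves correlated at 0.982 to 0.993 between arrays. The labels give no shared animal or day, so that same-numbered arrays were not treated as pairs. By these deviations, 7 of 8 arrays were closest to their own number in the other group, a hint from the data and not the design. The sign turned for H2-DMb1 alone, whose difference ran from -0.013 (without control replicate 3) to 0.84 with 1 array left out.

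Genes called numbered 57, with 285 for normexp and the 75th percentile, 131 for normexp and quantile (68.7% of them higher, against 82.5%), 180 for the deposited table, 32 with no filter, 151 with the filter on all 8 arrays, 221 with an intensity trend, 309 with array weights, 103 with the replicate block, 7 to 56 with 1 array left out and 8 without the pair above. Probes called numbered 37, with 306, 125 and 162 for normexp with the 75th percentile, normexp with quantile and the deposited table, 115 with the filter on all 8 arrays, 222 with the trend, 247 with array weights, 6 to 52 with 1 array left out and 9 without the pair. Why these counts moved was not tested. Of the 3 chains H2-Aa, H2-Ab1 and H2-Eb1, 1 was higher at an unadjusted p under 0.05 without tacrolimus replicate 1 or 3. The replicate block gave 4 costimulatory and 5 T cell genes by that rule. Arrays not well above background limit H2-DMb2 among the 10 genes, and H2-Ea-ps, H2-Eb2, Pdcd1lg2, Lag3, Clec9a, Fcgr1, Adipoq, Plin1, Cidec and Retn among the others named. H2-Oa, H2-Ob and Ciita were dim but well above background. Their differences were smaller with normexp and the 75th percentile, at 0.48, 0.74 and 0.82. With that setting, the brighter H2-Ab1 and Cd74 differed by 1.59 and 1.41.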
